A study of Mus musculus with 12 samples.

Results

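The genes described here encode potassium, calcium, sodium and TRP channels, followed in dermal papilla (DP) cells of mice with or without Fgfr1 and Fgfr2. The DP is the cluster of mesenchymal cells at the base of the hair follicle. Members were taken by symbol, from genes whose names begin with Kcn, with Cacna, Cacnb or Cacng, with Scn and a digit, or with Trpc, Trpm or Trpv and a digit, together with the sulfonylurea receptor genes Abcc8 and Abcc9. This gave 117 genes listed at both ages, of 14986 listed at both: 73 potassium, 18 calcium, 11 sodium and 15 TRP genes. One of the 15, Trpc4ap, fits by its symbol and encodes a TRPC4-associated protein rather than a channel. A further 5 (Kcna4, Cacna1i, Abcc8, Kcnk13 and Kcnj14) are listed at only 1 age, with at most 12 reads in any library, and Kcnj11 is listed at neither.

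YFP-positive DP cells were sorted from dorsal skin at P14 and P16, days on which the follicle is in anagen, its growth phase, and their RNA was sequenced after removal of ribosomal RNA. There are 12 libraries, 3 for each of 4 groups: P14 control, P14 dMF1/2, P16 control and P16 dMF1/2. The dMF1/2 mice are Cor-cre/+; Fgfr1 Flox/Flox; Fgfr2 Flox/Flox, in which the Cor-cre allele, active in the DP after birth, deletes both receptor genes. The labels call the controls wild type, and the methods describe them as Cor-cre/+ with 1 floxed copy of each receptor gene, or as floxed at both copies without Cre. Because the YFP reporter is switched on by Cre, a sorted control cell carries Cre, and the reporter is shared by all 4 groups. The study describes each library as that of 1 mouse.

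The libraries hold 19302358 to 29860750 reads in the listed protein-coding genes. Both P14 libraries numbered 1 stand apart in the share of reads from Col1a1, 7.06% in control and 9.15% in dMF1/2 against 13.1% to 17.7% in the other 10. The targeted genes were still read in every dMF1/2 library. Fgfr1 had 12520, 8512 and 9940 normalized reads in P16 control and 8015, 6226 and 7552 in P16 dMF1/2 (log2 fold change -0.50, SE 0.16, adjusted p = 0.130), and Fgfr2 had a mean of 5079 and 5081. These counts cover whole genes, and the sources used here do not say which exons the deletion removes, so they do not check the genotype. The summed DP markers (Corin, Sox2, Alpl and 7 others) reached 1273 to 6533 CPM (reads scaled to the library's total). Kit, Ptprc and the other immune genes summed to 1.43 to 5.89. Pericyte and smooth muscle markers summed to 984 to 2003, and Schwann cell and neuron markers to 144 to 309. DP markers were thus present in every library, and these sums do not measure how pure the sort was.

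Ion channels set the membrane voltage of a cell and the calcium that enters it. Potassium channels let potassium out and hold the voltage low, while voltage-gated sodium and calcium channels open when it rises. TRP channels pass cations in response to lipids, stretch, heat or calcium stores. Pore-forming subunits assemble with accessory ones that set how many channels reach the surface and how fast they open and close, so the genes are taken below in that order: potassium pores and their partners, calcium pores and theirs, sodium, then TRP.

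Values below are normalized reads, that is reads divided by the size factor of the library, and a difference is log2(dMF1/2/control) from limma on log2(value + 1). A gene was tested where its mean over the libraries compared was at least 10, and called where the Benjamini-Hochberg adjusted p over all genes tested was under 0.05. Of the 117 genes, 93 were tested at P14 and 94 at P16. Libraries with the same replicate number deviated together, so each call is also given with that number as a block where this changes it. Such words as "called only with the block" compare the 2 limma fits alone, and DESeq2 without the block called 18 channel genes at P16, 16 of them among the 20 called with it.

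Per kb of exon, where genes can be compared with each other, the highest mean level over the 12 libraries was that of Kcne4, at 499.6 normalized reads per kb, above 91.3% of all genes. Kcne4 is an accessory subunit that slows or silences Kv channels. Next came Scn4b, a sodium channel β subunit, at 325, the T-type calcium channel pore Cacna1g at 283, Trpc4ap at 267, the calcium channel β subunit Cacnb3 at 243, and Trpm7, a channel fused to a kinase, at 235. The highest sodium pore gene was Scn7a, an atypical sodium-sensing channel, at 91.2, and the highest inward rectifier was Kcnj8 at 202. The order of levels was not the same in every group: per kb, Scn4b averaged 364 in P14 control and 91 in P16 control, while Trpc4ap averaged 272 and 262. These levels per kb are on the scale of the 12 libraries rescaled together. The values by library below were normalized within each age, so setting them across ages carries that difference in scale.

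**Figure D1:**
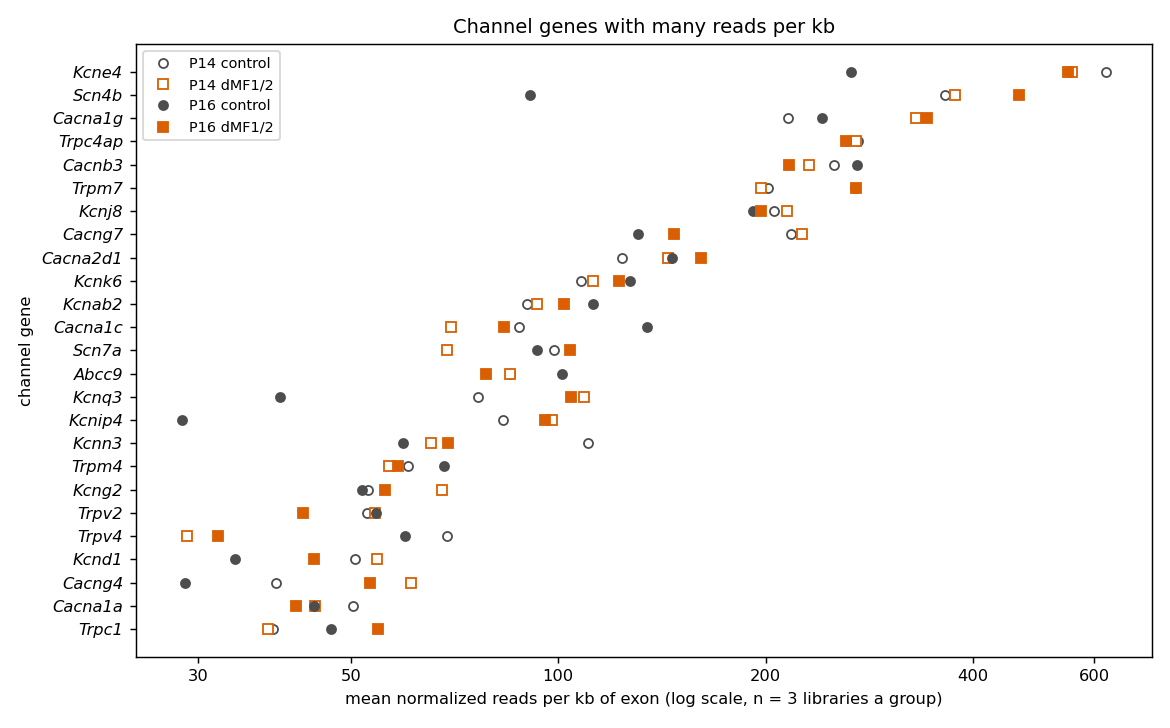
Mean normalized reads per kb of exon (x axis, log scale) of 25 channel genes with high means over all libraries (y axis), for P14 control (open circles), P14 dMF1/2 (open squares), P16 control (filled circles) and P16 dMF1/2 (filled squares), each the mean of 3 libraries without error bars. Kcne4, Scn4b, Kcnq3 and Kcnip4 have their P16 control mean well to the left of the other 3 groups.

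At P16, 7 of the 94 channel genes tested (7.45%) were called, 6 higher in dMF1/2 and 1 lower. The background is 4.32% of the 13457 genes tested, 2.18% higher and 2.14% lower. Those higher were Scn4b, Cacna2d3, Kcnd3, Kcnq3, Cacna1d and Trpm3, and the one lower was Trpc6. When the replicate number entered as a block, 20 were called, 15 higher and 5 lower, against a background of 10.4%. In 31 genes (33.0%) the 3 control and 3 dMF1/2 libraries did not overlap, against 24.5% of all genes. The median log2 difference of the 94 was 0.13, and that of all genes tested was -0.004. Above 0 were 55 of the 94 (58.5%), against 49.2% of all genes. In 7 of the 94 the mean of 1 group was under 10, so they were tested through the group where they are high.

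At P14 none of the 93 genes tested was called by limma, where the background is 0.0525% of 13334 genes, or 7 genes. At an unadjusted p under 0.05 there were 16 (17.2%; background 7.32%), edgeR called 0 and DESeq2 called 5. With the block limma called 5, 3 higher (Cacng5, Cacna1g, Kcng1) and 2 lower (Kcnn3, Trpv4), against a background of 1.68%. In 3 of the 93 the mean of 1 group was under 10, and Cacng5 is one of these, tested through the dMF1/2 group where it is high. The groups did not overlap in 16 genes (17.2%), where the background is 12.7%. Of the genes called with the block at both ages, 1 is shared, Cacna1g.

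Among the potassium pores, the A-type Kv4 channels Kcnd2 and Kcnd3, which open and inactivate fast below the firing threshold of excitable cells, stood higher in dMF1/2 at P16. Kcnd3 (ENSMUSG00000040896; GRCm38, chr3:105452330-105674002, plus strand) had 42.8, 71.5 and 63.9 in the control libraries and 186, 191 and 242 in the dMF1/2 libraries. No dMF1/2 library came near the highest control one, and the mean was 3.49-fold higher on the fitted scale (log2 1.80, SE 0.22, adjusted p = 0.00615). At P14 it had 80.1, 84.7 and 85.8 in the control libraries and 229.5, 121 and 106 in the dMF1/2 libraries, again without overlap, though the difference of 0.77 (SE 0.29) was not called (adjusted p = 0.602) and dMF1/2 library 1 lay above the other 2.

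Kcnd2 (chr6:21215503-21729805, plus strand) had 9.6, 70.5 and 59.8 in the control libraries and 143, 161 and 283 in the dMF1/2 libraries at P16. The control libraries were spread from 9.60 to 70.5, and the log2 difference of 2.39 (SE 0.67) was called only with the block (adjusted p = 0.0944 without it and 0.0198 with it). Without control library 1, the lowest, the difference was 1.51 (SE 0.29) and was called without the block (adjusted p = 0.0350). Kcnd1, the third member of the subfamily and the one with the most reads per kb, had 155, 214 and 177 in the control libraries and 205, 244 and 266 in the dMF1/2 libraries, a difference of 0.39 (SE 0.16) that was not called, with an adjusted p of 0.225. The ratio of Kcnd2 to Kcnd1 reads, which does not depend on scaling, was 0.0618, 0.330 and 0.337 in P16 control and 0.695, 0.660 and 1.06 in P16 dMF1/2, against 0.487 to 1.09 over the 6 P14 libraries. The 3 P16 control libraries thus held the 3 lowest ratios of the 12; the ratio was chosen after its values were seen and was not tested.

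Kv4 pores work with KChIP proteins, calcium-binding subunits that bring them to the surface. Kcnip4 (chr5:48389502-49524907, minus strand) had 38.4, 169 and 106 in the control libraries and 304, 325 and 434 in the dMF1/2 libraries at P16. The groups did not overlap, and the log2 difference of 1.97 (SE 0.46) passed in limma only with the block, at an adjusted p of 0.0156 against 0.0566 without it, and in DESeq2 without the block at 0.0374. Without control library 1 the difference was 1.38 and was called without the block (adjusted p = 0.0234). At P14 the same gene had 378, 263 and 251 in the control libraries and 548, 193 and 312 in the dMF1/2 libraries, fully overlapping (0.14, SE 0.36). The gene overlaps 5730480H06Rik on the opposite strand, and whether counting used strand is not given in the sources used here.

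Kcne4 (chr1:78816758-78820028, plus strand) had 450.5, 1026 and 681 in the control libraries and 1404, 1311 and 1749 in the dMF1/2 libraries at P16. All 3 dMF1/2 libraries lay above all 3 controls, by 1.12 on the log2 scale (SE 0.27; adjusted p = 0.0579, and 0.0272 with the block). Its P14 values, 1947, 1730 and 1238 in the control libraries and 1691, 1112 and 1593 in the dMF1/2 libraries, were interleaved. P16 control libraries were thus the low ones among the 4 groups, with a mean of 719 ± 289 (SD, n = 3) against 1488 ± 230.5 (SD, n = 3) in dMF1/2.

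The KCNQ channels carry the slow M-type current, which opens near rest and steadies the voltage. Kcnq3 (chr15:65986387-66286224, minus strand) had 389, 660.5 and 714 in the control libraries and 1295, 1171 and 2232 in the dMF1/2 libraries; the groups did not overlap and the difference was called (log2 1.40, SE 0.29, adjusted p = 0.0374). One dMF1/2 library, number 3, lay well above the other 2.

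Among the calcium-activated channels Kcnma1, the large-conductance BK pore, had 16.6, 29 and 25.4 in the control libraries and 37.8, 60.6 and 61.4 in the dMF1/2 libraries at P16. At P14 the values were 26.1, 18.2 and 27.3 in the control libraries and 39.5, 44.8 and 53.3 in the dMF1/2 libraries. The groups were apart at both ages, by 1.14 (SE 0.30) at P16 and 0.92 (SE 0.26) at P14. Limma called it only at P16 and only with the block (adjusted p = 0.0778 and 0.0208), and DESeq2 called it at P16 without the block (0.0225). Kcnn3, the small-conductance SK3 pore, behaved otherwise. It had 1362, 1244 and 815 in the control libraries and 869, 629.5 and 526 in the dMF1/2 libraries at P14, a log2 difference of -0.75 (SE 0.24) called only with the block (adjusted p = 0.510 and 0.0131), with the lowest control library inside the dMF1/2 range. At P16 it had 318, 703 and 871 in the control libraries and 756, 534 and 925 in the dMF1/2 libraries, a difference of 0.31 (SE 0.36) in the other direction that was not called.

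Kcng1, an electrically silent subunit that modifies Kv2 channels, had 68.9, 101 and 114 in the control libraries and 167, 168 and 184 in the dMF1/2 libraries at P14. The 3 dMF1/2 libraries were close together and above every control. The difference of 0.89 (SE 0.20) was called by limma only with the block (adjusted p = 0.286 and 0.0495), and by DESeq2 without it (0.0235). At P16 it had 117, 98.5 and 50.7 in the control libraries and 105, 135 and 110.1 in the dMF1/2 libraries, with overlap. Kcng2, the silent subunit with the most reads per kb, had 174, 168 and 131 in the control libraries and 182, 151 and 179.9 in the dMF1/2 libraries at P16 and was called at neither age.

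Leak channels and inward rectifiers hold the resting voltage, and none of these genes was called between the genotypes without the block. Kcnk3, the acid-sensitive leak channel TASK-1, had 139.7, 71.5 and 85.2 in the control libraries and 68.1, 56 and 39.2 in the dMF1/2 libraries at P16 and was lower by 0.83 (SE 0.30), called just under the threshold with the block and not without it (adjusted p = 0.178). Kcnk6, the leak channel with the most reads per kb, had 576, 523 and 509 in the control libraries and 572, 580.4 and 404 in the dMF1/2 libraries and a difference of -0.06 (SE 0.15). Kcnj2, the classical strong inward rectifier Kir2.1, had 282, 280.0 and 199.7 in the control libraries and 198, 291 and 172 in the dMF1/2 libraries and a difference of -0.22 (SE 0.22). Of the 9 Kcnj genes outside the KATP pair only 3 had enough reads to be tested at P16.

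KATP channels couple metabolism to voltage: a Kir6 pore is closed by ATP and is surrounded by sulfonylurea receptors, the target of potassium channel openers. Both subunits of the vascular form were read here. Kcnj8 (Kir6.1; chr6:142564837-142571614, minus strand) had 651, 459.9 and 439 in the control libraries and 469.9, 552 and 602 in the dMF1/2 libraries at P14. At P16 the values were 448, 484 and 558 in the control libraries and 508, 575 and 451 in the dMF1/2 libraries. The genotypes overlapped at both ages, and the differences were 0.08 (SE 0.17) at P14 and 0.04 (SE 0.12) at P16, with adjusted p of 0.991 and 0.913. Abcc9 (SUR2; chr6:142587862-142702315, minus strand), which lies 16247 bases from Kcnj8 on the same strand, had 816, 574 and 722 in the control libraries and 710.2, 632 and 774 in the dMF1/2 libraries at P14. At P16 the values were 837, 968 and 779 in the control libraries and 681, 814 and 516 in the dMF1/2 libraries. Its P16 difference of -0.38 (SE 0.17) was called only with the block (adjusted p = 0.266 and 0.0447), and the groups overlapped. The other pair, Abcc8 and Kcnj11, was near absent: Abcc8 had 4 reads in the 3 P16 control libraries together and 11 in the 3 dMF1/2 libraries.

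**Figure D2:**
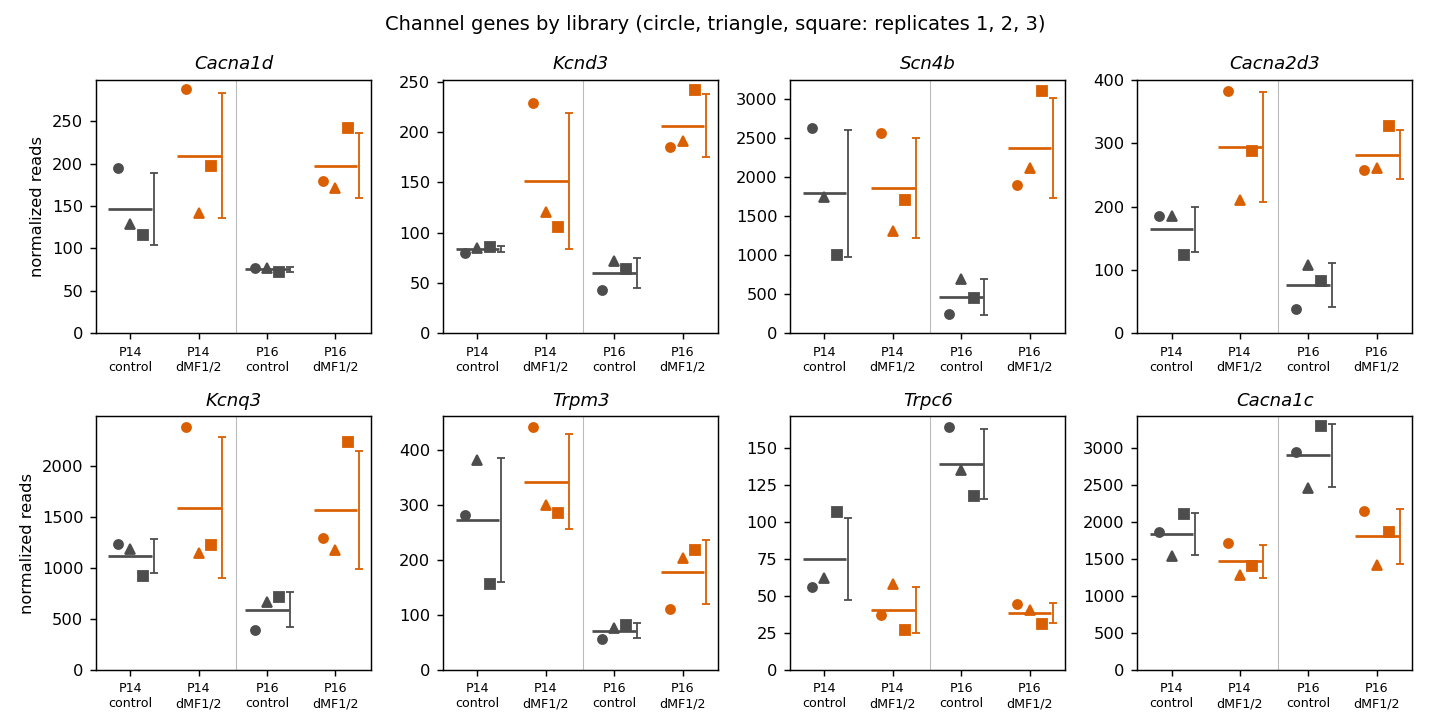
Normalized reads (y axis) of the 7 channel genes called at P16 and of Cacna1c, by group (x axis); each symbol is 1 library (circle, triangle and square for replicates 1, 2 and 3), horizontal lines are means and bars are the SD of 3 libraries. In all 8 panels the P16 control and P16 dMF1/2 libraries do not overlap; Trpc6 and Cacna1c are higher in P16 control, the other 6 lower.

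The voltage-gated calcium channel pores differed in direction. Cacna1g, the T-type pore that opens at low voltage, had 1748, 2666 and 2062 in the control libraries and 3109, 3486 and 3363 in the dMF1/2 libraries at P14. At P16 the values were 2780, 2207 and 2477 in the control libraries and 3191, 3074 and 4363 in the dMF1/2 libraries. Every dMF1/2 library was above every control at both ages, by 0.64 (SE 0.16) and 0.50 (SE 0.15), called by limma only with the block. The adjusted p was 0.309 and 0.0246 at P14, and 0.109 and 0.0423 at P16, without and with it. DESeq2 without the block called both (adjusted p = 0.0471 at P14 and 0.03155 at P16). Cacna1d (chr14:30039949-30491156, minus strand), the L-type pore Cav1.3 that opens at more negative voltage than Cav1.2, had 76.8, 76.7 and 72 in the control libraries and 179, 172 and 242 in the dMF1/2 libraries at P16. The control libraries differed by under 5 normalized reads, and the difference of 1.37 (SE 0.16) was called (adjusted p = 0.00615).

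Cacna1c (chr6:118587240-119196418, minus strand), the main L-type pore Cav1.2 of muscle and heart, was the one calcium pore gene called lower, with the block. It had 2938, 2449 and 3292 in the control libraries and 2145, 1408 and 1855 in the dMF1/2 libraries, without overlap, and a difference of -0.69 (SE 0.17) called only with the block (adjusted p = 0.0608 and 0.00577). Read as a ratio within each library, Cacna1c over Cacna1g was 1.06, 1.11 and 1.33 in P16 control and 0.672, 0.458 and 0.425 in P16 dMF1/2. At P14 it was 1.07, 0.578 and 1.02 in control and 0.550, 0.367 and 0.416 in dMF1/2. At both ages all dMF1/2 ratios were below all control ratios; the ratio was chosen after its values were seen and was not tested. Cacna1d and Cacna1c each overlap protein-coding genes on the opposite strand (Chdh and Dcp1a for Cacna1d, Dcp1b for Cacna1c).

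Of the accessory calcium channel subunits, α2δ proteins carry the pore to the surface, β proteins bind it from inside, and γ proteins either modulate it or serve AMPA receptors. Cacna2d3 (chr14:28904943-29721864, minus strand), an α2δ gene, had 38.4, 108 and 82.1 in the control libraries and 258, 261 and 327 in the dMF1/2 libraries at P16, 3.97-fold higher on the fitted scale (log2 1.99, SE 0.34, adjusted p = 0.0190). At P14 it had 184, 184 and 123 in the control libraries and 383, 210.2 and 288 in the dMF1/2 libraries, also without overlap, a difference of 0.82 (SE 0.26) that was not called (adjusted p = 0.484). Cacna2d1, the α2δ gene with the most reads, had 1776, 1929 and 1819 in the control libraries and 1912, 2082 and 2129 in the dMF1/2 libraries at P16 and a difference of 0.15 (SE 0.08). Cacnb3 had 1163, 1026 and 1122 in the control libraries and 872, 861 and 925 in the dMF1/2 libraries; the gap was small but clear of both groups' ranges, -0.32 (SE 0.08), called only with the block (adjusted p = 0.0812 and 0.0375). Cacna2d3 shares its locus with Lrtm1 on the opposite strand.

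The widest difference of any channel gene at P14 was that of Cacng5 (ENSMUSG00000040373; chr11:107874605-107915055, minus strand), which encodes a γ subunit of the kind that binds AMPA receptors. It had 9.32, 15 and 1.95 in the control libraries and 159.7, 299.8 and 147 in the dMF1/2 libraries at P14, a log2 difference of 4.61 (SE 0.63). The control values stand for 2 to 14 reads a library, with a mean under the filter of 10, whereas every dMF1/2 library was above 140, and limma called the gene with the block (adjusted p = 0.00176) and not without (0.114), while DESeq2 called it without the block (1.45e-15). The size of the difference depended on the pseudocount, with 4.85 at 0.1 and 3.49 at 10 (called, adjusted p = 0.0417), and was 3.91 without control library 3. At P16 it had 58.5, 0 and 7.1 in the control libraries and 97.2, 205 and 272 in the dMF1/2 libraries. The groups were again apart, by 4.50, but with control library 1 far above the other 2 the SE was 1.25 and no call was made (adjusted p = 0.0930, and 0.0557 with the block). Its neighbour on the same strand, Cacng4, 80047 bases away, had 147, 121 and 143 in the control libraries and 314, 139 and 197 in the dMF1/2 libraries at P14. At P16 the values were 139, 78.8 and 94.3 in the control libraries and 150.2, 181 and 251 in the dMF1/2 libraries. The differences, 0.58 (SE 0.28) at P14 and 0.90 (SE 0.25) at P16, were not called by limma with or without the block, and DESeq2 called that at P16 (adjusted p = 0.0169).

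**Figure D3:**
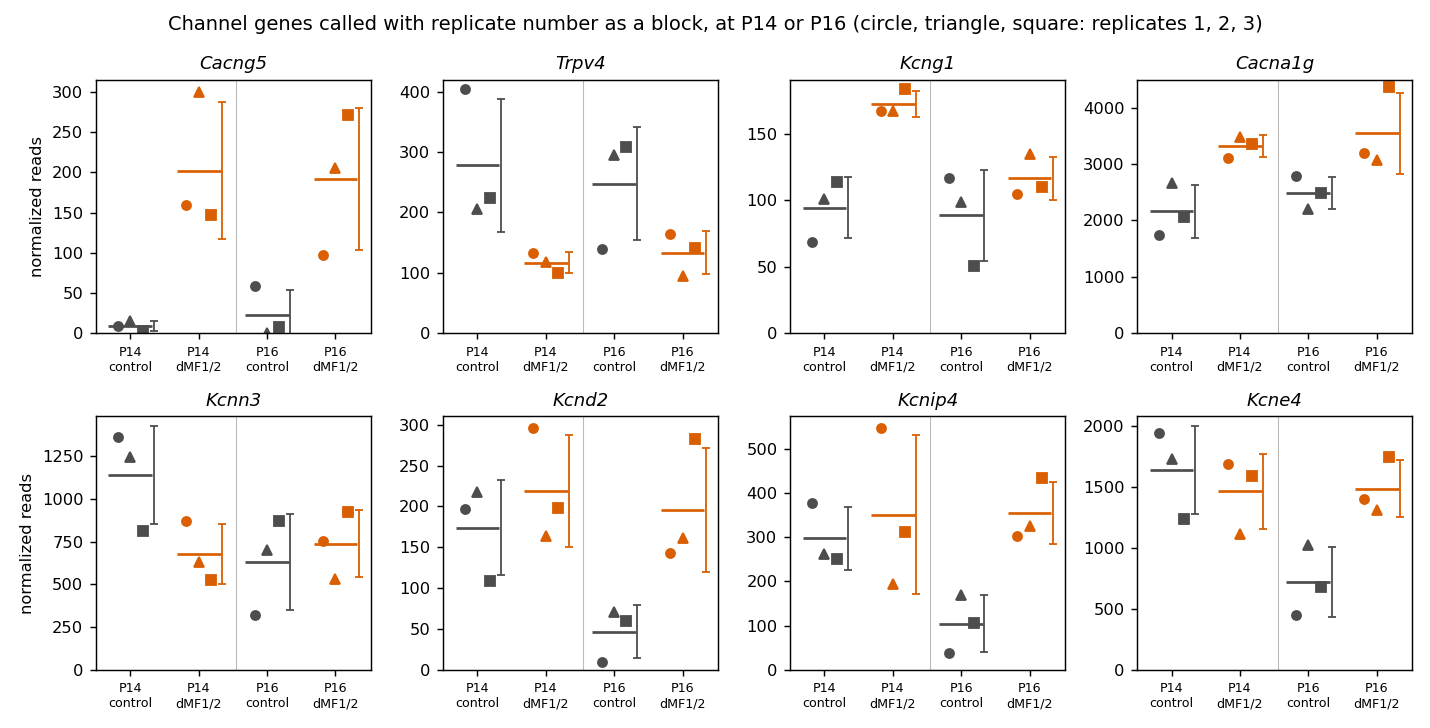
Normalized reads (y axis) by group (x axis) of 8 channel genes called only in the blocked fit, at P14 or P16, with symbols, lines and bars as in the plot of the called genes. Cacng5 and Cacna1g are apart between genotypes at both ages, while Kcnd2, Kcnip4 and Kcne4 overlap at P14 and have low P16 control libraries.

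Sodium channel β subunits are single-pass proteins that alter gating and also act in cell adhesion. Scn4b (ENSMUSG00000046480; chr9:45138437-45154152, plus strand) had the largest difference among the called channel genes at P16. It had 240.1, 693 and 447 in the control libraries and 1890, 2112 and 3100 in the dMF1/2 libraries, a mean of 460.0 ± 227 (SD, n = 3) against 2367 ± 644 (SD, n = 3). The lowest dMF1/2 library was well above the highest control one, and the log2 difference was 2.46 (SE 0.35, adjusted p = 0.0111), 5.49-fold. At P14 it had 2623, 1747 and 1002 in the control libraries and 2563, 1302 and 1707 in the dMF1/2 libraries, a difference of 0.10 (SE 0.38) with complete overlap.

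Scn2b lies 8366 bases upstream of Scn4b on chromosome 9 and on the same strand, the closest pair without overlap among the 10 pairs of neighbouring channel genes within 100 kb. Scn2b (chr9:45117876-45130070, plus strand) had 32.3, 62.2 and 61.9 in the control libraries and 83.2, 119 and 121 in the dMF1/2 libraries at P16. At P14 the values were 107, 110.4 and 89.7 in the control libraries and 204, 143 and 183 in the dMF1/2 libraries. Unlike Scn4b, its groups were apart at both ages, by 1.07 (SE 0.29) at P16 and 0.77 (SE 0.18) at P14, with a limma call only at P16 and only with the block (adjusted p = 0.0825 and 0.0112). DESeq2 without the block called it at both ages (adjusted p = 0.0107 at P16 and 0.0338 at P14).

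Among sodium channel pores, Scn3a had 249.7, 439.7 and 357 in the control libraries and 588, 513 and 706 in the dMF1/2 libraries at P16, higher by 0.81 (SE 0.21) and called only with the block (adjusted p = 0.0731 and 0.0403). At P14 its difference was -0.36 (SE 0.34) and the groups overlapped. Scn7a had 513, 789 and 778 in the control libraries and 819.9, 697 and 816 in the dMF1/2 libraries at P16 and was not called (0.19, SE 0.17). Of the 10 sodium genes tested at P16, 1 was called, where 4.32% of all genes were called. Above 0 were 8 of the 10, with a median of 0.50, where 49.2% of all genes were above 0 with a median of -0.004. At P14 none was called, where 0.0525% of all genes were called. Above 0 were 5 of the 10, with a median of 0.0004 against 0.005 for all genes.

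TRPC channels open downstream of phospholipase C, and Trpc6 is activated directly by diacylglycerol. Trpc6 (ENSMUSG00000031997; chr9:8544196-8680565, plus strand) was the only channel gene called lower at P16 without the block. It had 164, 135 and 118 in the control libraries and 44.3, 40.1 and 30.7 in the dMF1/2 libraries, 3.56-fold lower (log2 -1.83, SE 0.21, adjusted p = 0.00592). At P14 it had 55.9, 62.2 and 106 in the control libraries and 37, 57.6 and 26.7 in the dMF1/2 libraries, a difference of -0.88 (SE 0.36) with overlap and no call (adjusted p = 0.652). The dMF1/2 libraries thus lay between 26.7 and 57.6 at both ages, and the P16 controls held the 3 highest values of the 12.

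Trpm3 (chr19:22139119-22989884, plus strand), a channel opened by pregnenolone sulfate and heat, had 55.9, 75.7 and 82.1 in the control libraries and 111, 203 and 218 in the dMF1/2 libraries at P16. All dMF1/2 libraries exceeded the controls, by 1.26 (SE 0.27, adjusted p = 0.0434), and dMF1/2 library 1 was the lowest of the 3. In a fit of all 12 libraries the call was lost (adjusted p = 0.0585). Trpm7, which carries magnesium and is widely expressed, had 3201, 2930 and 3148 in the control libraries and 3329, 3081 and 2959 in the dMF1/2 libraries and did not separate (0.01, SE 0.08). Trpc4ap had 2335, 2326 and 2306 in the control libraries and 2451, 2351 and 2201 in the dMF1/2 libraries and did not separate either (0.01, SE 0.08).

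The TRPV genes differed among themselves. Trpv4, opened by swelling and warmth, had 404, 205 and 224 in the control libraries and 133, 118 and 98.9 in the dMF1/2 libraries at P14. At P16 the values were 139.7, 294 and 308 in the control libraries and 164, 95.2 and 141 in the dMF1/2 libraries. The P14 groups were apart by -1.19 (SE 0.27), called by limma only with the block (adjusted p = 0.286 and 0.0185), and by DESeq2 without it (0.00523). At P16 control library 1 fell inside the dMF1/2 range and limma made no call (-0.84, SE 0.32). DESeq2 called 2 of the 4 TRPV genes at P16. Trpv6, a highly calcium-selective channel, had 52.4, 55 and 55.8 in the control libraries and 123, 74.7 and 176 in the dMF1/2 libraries at P16, higher by 1.10 (SE 0.29) and called only with the block (adjusted p = 0.0764 and 0.0372). Trpv2 had 245, 263 and 234 in the control libraries and 206, 231 and 147 in the dMF1/2 libraries, lower by 0.37 on the log2 scale (SE 0.17), a difference that was not called.

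Some calls at P16 were lost when 1 library was left out. Trpc6, Cacna1d and Kcnd3 were called whichever library was left out. Scn4b lost its call without dMF1/2 library 3 (adjusted p = 0.0511). Cacna2d3 lost it without control library 3 or any 1 dMF1/2 library (0.0532 to 0.0883), Kcnq3 without any library except control 2 (0.0545 to 0.103), and Trpm3 without any except dMF1/2 library 1 (0.0667 to 0.149). The log2 differences with 1 library left out were 2.05 to 2.82 for Scn4b, 1.56 to 2.30 for Cacna2d3, 1.11 to 1.58 for Kcnq3 and 1.09 to 1.57 for Trpm3. The count of called channel genes was 4 without control library 3 and 3 without dMF1/2 library 3, where all genes called numbered 184 and 149.

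The second question of the design is how the genes changed from P14 to P16 in each genotype. In control 17 of the 98 channel genes tested (17.3%) were called, 4 higher and 13 lower at P16; the background is 14.5%, 6.26% higher and 8.28% lower. In dMF1/2 2 of 98 (2.04%) were called, both higher, against a background of 5.80%. Of the 98, 13 had a mean under 10 on 1 of the days in control and 8 in dMF1/2. Kcng4 and Kcnrg, both called in control, are among the 13. The control comparison uses the same 3 P16 control libraries as the P16 genotype comparison, so the sets of values are given side by side and their likeness is not a separate result. Without both P14 libraries numbered 1, which stand apart, 6 were called in control and 1 in dMF1/2. Calls over all genes then went from 1951 to 951 in control and from 778 to 819 in dMF1/2.

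**Figure D4:**
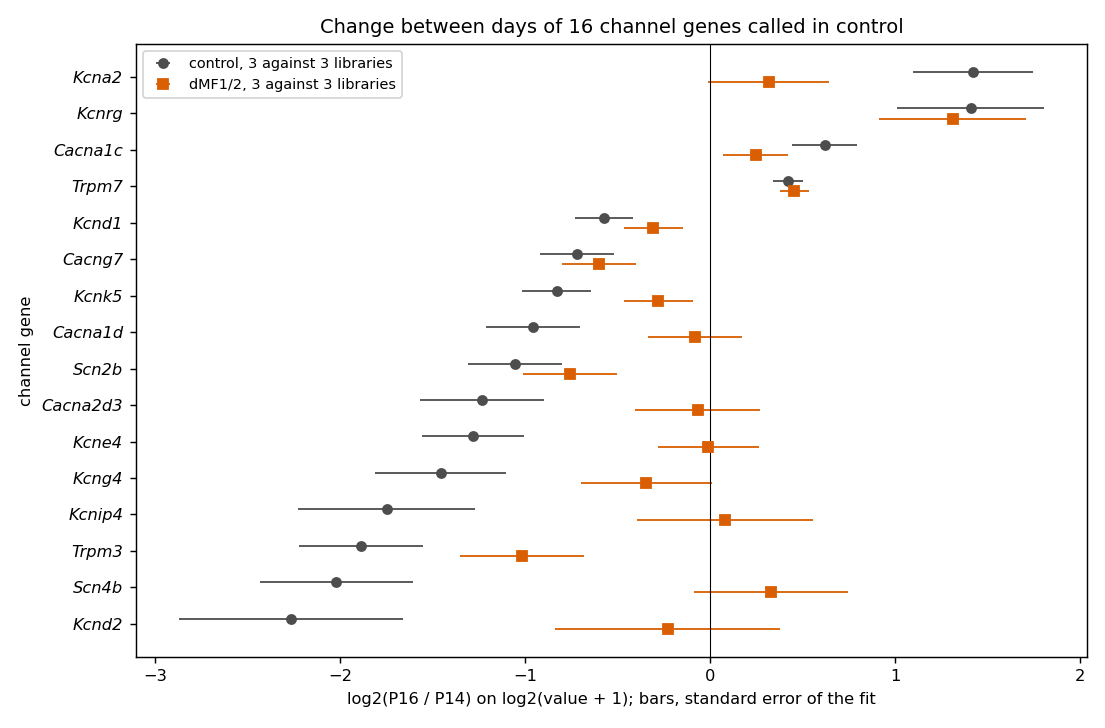
Log2 change from P14 to P16 (x axis; bars are the standard error of the fit) in control (circles) and dMF1/2 (squares) of 16 channel genes called in control (y axis). In control 12 of them lie below 0, from -0.57 to -2.27; in dMF1/2 Scn4b, Kcne4, Kcnip4 and Cacna2d3 lie within 1 standard error of 0.

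The widest changes in control were those of voltage-gated potassium and sodium channel subunits and of Trpm3. Kcnd2 fell by 2.27 on the log2 scale (SE 0.61, adjusted p = 0.0310) in control, and its change in dMF1/2 was -0.23 (SE 0.61). Scn4b fell by 2.02 (SE 0.41, adjusted p = 0.0112) in control, with a change of 0.33 (SE 0.41) in dMF1/2. Kcnip4 fell by 1.75 (SE 0.48, adjusted p = 0.0332) and Kcne4 by 1.28 (SE 0.27, adjusted p = 0.0133), where the changes in dMF1/2 were 0.08 (SE 0.48) and -0.01 (SE 0.27). These 4 are an A-type potassium pore, its KChIP partner, an inhibitory potassium subunit and a sodium channel β subunit.

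Among the calcium genes, Cacna2d3 fell by 1.23 (SE 0.34, adjusted p = 0.0333) and Cacna1d by 0.96 (SE 0.26, adjusted p = 0.0310) in control, with changes of -0.07 and -0.08 in dMF1/2. Cacng7, the γ gene with the most reads per kb, fell by 0.72 (SE 0.20, adjusted p = 0.0362) in control and had a change of -0.60 (SE 0.20, adjusted p = 0.102) in dMF1/2. Cacna1c went the other way: it rose in control by 0.62 (SE 0.18, adjusted p = 0.0374), with a change of 0.25 (SE 0.18) in dMF1/2. Genes that also fell in control were Trpm3 (-1.89), Kcng4 (-1.46), Scn2b (-1.05), Kcnk5 (-0.83) and Kcnd1 (-0.57).

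Trpm3 and Scn2b had negative changes in dMF1/2 too, -1.02 (SE 0.34, adjusted p = 0.0986) and -0.76 (SE 0.26, adjusted p = 0.104), neither called. Trpm7 was the single gene called in both genotypes. It had 2050, 2405 and 2303 in P14 control and 3201, 2930 and 3148 in P16 control, and rose by 0.42 (SE 0.08, adjusted p = 0.00846) in control and 0.46 (SE 0.08, adjusted p = 0.00800) in dMF1/2. Trpc1, a store- and receptor-linked channel, rose in dMF1/2 alone among the calls, by 0.53 (SE 0.12, adjusted p = 0.0335), with 0.28 (SE 0.12, adjusted p = 0.143) in control; the difference between the genotypes was 0.24 (SE 0.18) and was not called. Kcna2 and Kcnrg also rose in control, by 1.42 (SE 0.33) and 1.41 (SE 0.40), from low values: Kcna2 had 8.38, 9.65 and 12.7 at P14 and 20.9, 44.6 and 27.4 at P16, and Kcnrg, a cytoplasmic regulator of Kv channels, had 7.45, 5.36 and 5.85 and 20.1, 15.6 and 20.3.

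Most of these calls in control were lost when 1 library was left out. Of the genes followed in every alternative, Scn4b, Trpm3 and Trpm7 were called whichever library was left out. Without P14 control library 1 the count was 4, and Kcnd2, Kcnip4, Scn2b, Cacna1d, Cacna2d3, Cacng7, Kcnd1, Kcne4 and Cacna1c had adjusted p from 0.0526 to 0.132. Without P16 control library 1 the count was 5, with Kcnd2 at -1.39 and Kcnip4 at -1.16 not called (adjusted p = 0.0541 and 0.0967). Without P14 control library 2 it was 8, and without P16 control library 3 it was 9. Calls over all genes fell as well, from 1951 to 782 and 1044 without P14 control library 1 or 2. They fell to 693 and 971 without P16 control library 1 or 3.

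Whether the change between days differs with genotype is the interaction. No channel gene passed it. Limma, with and without the block, and edgeR each called 0 of 98, and 0 of all genes tested. DESeq2 called 0 channel genes and 6 of all genes, so the 0 is not particular to channel genes. At an unadjusted p under 0.05 limma had 12 (12.2%), against a background of 4.83%. The smallest p was that of Scn4b, whose difference between days was 2.35 higher in dMF1/2 than in control (SE 0.59, unadjusted p = 0.00190, adjusted p = 1), followed by Kcne4 (1.27, SE 0.39, unadjusted p = 0.00690). The others above 0 were Kcnip4, Kcnd3, Scn3a, Cacna2d3, Cacna1d, Kcnd2 and Kcng4, and those below 0 were Kcna2, Cacna1h and Trpc6. For Scn4b, Kcnip4 and Kcne4, which fell in control and were not called in dMF1/2, a difference between the genotypes was thus not called after correction.

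The DP markers moved with the same libraries. The 10 summed to 1273 to 2622 CPM in P16 control and 2955 to 4706 in P16 dMF1/2. At P16 3 of the 10 were called higher (Alpl, Prom1 and Rspo3), against 2.18% of all genes, and 8 with the block, against 10.4% called in either direction. From P14 to P16 5 fell in control, against 8.28% of all genes. The 6 pericyte and smooth muscle markers summed to 1491 to 1841 in P16 control and 984 to 1272 in P16 dMF1/2, with 1 called lower (Cspg4), and the 6 Schwann cell and neuron markers in the table to 146 to 165 and 174 to 233. Keratinocyte markers summed to 13.0 to 29.6 and 25.7 to 28.0, endothelial to 21.5 to 51.7 and 29.9 to 47.5, melanocyte to 2.37 to 3.68 and 3.21 to 3.69, skeletal muscle to 3.58 to 10.96 and 4.19 to 8.98, adipocyte to 8.67 to 18.6 and 15.4 to 22.6 (Plin1 higher), and immune to 4.72 to 5.89 and 2.60 to 3.60. With the block, 3 Schwann cell and neuron markers (2 higher), 2 adipocyte, 1 endothelial and 1 immune marker were called. The part of cell composition in the channel results was not tested, and in sorted bulk cells fewer cells of a type and less RNA per cell cannot be told apart.

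Genes that work beside the channels were read from 6 lists. At P14 none of their members was called without the block, where 0.0525% of all genes were called. With the block 1 was called in each of 4 lists, against 1.68% of all genes. At P16, where 4.32% of all genes were called, 2.14% lower, the chloride channels had 2 of 17 lower: Ano1, the calcium-activated chloride channel, with 1120, 502 and 587 in control and 288, 312 and 182 in dMF1/2 (-1.44, SE 0.31, adjusted p = 0.0433), and Lrrc8d, a volume-regulated anion channel subunit (-0.92, SE 0.18, adjusted p = 0.0320). The stretch-activated channel Piezo1 was the 1 of 18 other cation channels called, lower by 0.50 on the log2 scale (SE 0.10, adjusted p = 0.0352). Calm2, a calmodulin gene, was the 1 of 20 calcium-calmodulin genes called (-0.57, SE 0.10, adjusted p = 0.0238), and Gja4, the connexin 37 gene, the 1 of 7 gap junction genes (1.03, SE 0.20, adjusted p = 0.0299). None of 11 store-operated entry genes and none of 13 pumps and exchangers was called at P16. With the block, where 10.4% of all genes were called, the counts were 4 chloride (with Clcn6 and Lrrc8a), 2 other cation (with Nalcn), 4 calcium-calmodulin (with Calm3, Ppp3cc and Rcan2), 1 gap junction, 2 store-operated entry and 1 pump gene. From P14 to P16 in control 5 of the 17 chloride channel genes tested rose, Ano1 among them by 1.45 (SE 0.31), 3 of 13 pump genes rose and 1 fell, against 6.26% of all genes higher and 8.28% lower. Of the other lists, 1 of 11 store and release genes rose (Ryr2) and 1 of 17 other cation channels fell (Hcn3). Of 20 calcium-calmodulin genes 1 rose (Rcan1) and 1 fell (Calm3), and none of 7 gap junction genes was called. In dMF1/2 1 of 11 store and release genes fell (Orai1) and no gene of the other lists was called, against 5.80% of all genes.

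Promoter sequence was available from RefSeq (GRCm38.p6) for 84 of the 117 genes. The 4 shown are examples: Kcnd2, Scn2b and Kcne4, low in P16 control, and Trpc6, low in dMF1/2. They do not stand for the set. Scn2b and Kcne4 are the only channel genes that fell in control whose promoters held the letters marked here. The run of Cacna2d3, which also fell in control, held none and is not printed. Each run is on the gene's own strand, ends at the RefSeq start or at the first annotated exon, whichever comes first, and holds no exon. For Kcnd2 and Trpc6 the RefSeq start lies upstream of the gene coordinates given above. Capitals mark CTTTGA or its reverse complement, the core letters that TCF/LEF factors bind.
Kcnd2 (chr6:21215096-21215345, plus strand): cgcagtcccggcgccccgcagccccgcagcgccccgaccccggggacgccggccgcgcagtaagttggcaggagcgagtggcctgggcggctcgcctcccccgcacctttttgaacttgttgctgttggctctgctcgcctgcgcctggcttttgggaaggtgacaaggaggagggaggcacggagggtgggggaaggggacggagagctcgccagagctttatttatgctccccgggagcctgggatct
Scn2b (chr9:45117626-45117781, plus strand): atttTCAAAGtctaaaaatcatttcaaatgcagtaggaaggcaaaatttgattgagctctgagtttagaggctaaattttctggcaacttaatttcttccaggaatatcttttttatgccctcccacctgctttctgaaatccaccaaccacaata
Kcne4 (chr1:78816661-78816757, plus strand): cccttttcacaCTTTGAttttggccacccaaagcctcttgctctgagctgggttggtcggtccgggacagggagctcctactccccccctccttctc
Trpc6 (chr9:8543892-8544141, plus strand): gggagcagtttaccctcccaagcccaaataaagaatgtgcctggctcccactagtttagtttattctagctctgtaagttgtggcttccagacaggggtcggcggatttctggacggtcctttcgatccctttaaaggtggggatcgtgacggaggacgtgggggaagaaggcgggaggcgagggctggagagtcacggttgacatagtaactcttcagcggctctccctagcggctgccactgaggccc

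The Scn2b run of 156 bases, low in G and C at 35.3%, has 1 match, and the Kcne4 run of 97 bases has 1. The Kcnd2 run (68.8% G and C) and the Trpc6 run (56.4%) have none. Over both strands of all promoters cut to the same length, 9.57% held the letters at 156 bases, 6.07% at 97 and 13.8% at 250. Of the 120 promoters of channel genes 14 (11.7%) held them, and of the 14 promoters of channel genes that fell in control 2 (14.3%), those of Kcne4 and Scn2b. The AP-1 letters TGANTCA stood in 6.75% of all 250-base promoters and 3.33% of those of channel genes, and the ETS letters CCGGAAG in 6.91% and 1.67%; neither stood in the 4 runs shown, so no motifs overlap there.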

How the data were processed

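RNA of YFP-positive dermal papilla cells was sequenced in 12 libraries, 3 per group. According to the labels and methods, the authors trimmed reads with Trimmomatic, mapped these with TopHat 2 (mm10), assigned them to genes of GRCm38.p4 by HTSeq-count and normalized them with DESeq2; the strand setting is not given in the sources used here. The deposited signal values are reads divided by a size factor, in 1 table per age of protein-coding genes. Dividing each by the value of 1 read gave whole reads (within 0.01) for 100% of values. Columns with the authors' own fold changes and p-values were not used. A library holds 19302358 to 29860750 reads.

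Groups came from the sample titles. Genotypes were compared within each age with limma 3.58.1 (trend) on log2(value + 1) where a gene's mean reached 10, adjusted over all genes tested at 0.05. Days were compared on the 14986 genes listed at both ages, rescaled by the median of ratios over the 12 libraries, in 1 fit of 4 groups. An exact permutation test of 3 against 3 libraries cannot go below p = 0.1. edgeR 4.0.16 and DESeq2 1.42.0 were run on the recovered reads, and limma was tested on simulated data.

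Deviations from the group means of libraries with the same replicate number correlated at 0.586, 0.389 and 0.304 at P14 and at 0.256, 0.293 and 0.311 at P16, so the number was taken to pair control and dMF1/2 libraries within an age, and the value from the blocked fit stands beside any call it alters. The labels do not say what a number marks.

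The genes, the lists of partners and markers and the tests were chosen with earlier results of these data known. Described are the genes called at either age; up to 8 per age called only with the block, by adjusted p; those called between days in both genotypes; the gene with the most reads per subfamily; and Abcc8, Abcc9, Kcnj8 and Kcnj11. Other channel genes named (such as Scn3a, Kcnk3, Cacng4, Trpc1, Kcna2, Kcnrg, Kcnk5 and Kcng4) and the ratios were chosen after their values were seen. Some channel genes that meet the rule are not reported here. Exon lengths come from GENCODE M21 (GRCm38). Alternatives were another tool, scaling, pseudocount, filter and set of libraries.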

Additional observations from a re-analysis of the deposited data

How the results depend on the processing

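At P16 the count of 7 called channel genes became 20 with the replicate block, 18 with DESeq2 and 12 in a fit of all 12 libraries, and 3 to 10 with 1 library left out; edgeR gave 7. Calls over all genes moved too, from 582 to 1403, 1114 and 595, and 149 to 684. The 7 were all among the genes called with the block and with DESeq2, and 16 of the 18 DESeq2 calls were called with the block. At P14 the count of 0 became 5 with the block, 5 with DESeq2 and 1 with a pseudocount of 10, and stayed 0 with any 1 library left out, while all genes called went from 7 to 224, 205, 10 and 0 to 18. From P14 to P16 in control, 17 became 5 when only control libraries were fitted, 6 without both P14 libraries numbered 1 (added after seeing the data) and 4 to 19 with 1 library left out, where calls over all genes went from 1951 to 806, 951 and 693 to 2129. In dMF1/2, 2 became 6 with DESeq2, 1 without those libraries and 1 to 3 with 1 library left out, and all genes called from 778 to 1311, 819 and 257 to 861. The interaction stayed at 0 channel genes under every alternative run, where calls over all genes were 0 to 6. The cause of these shifts was not tested, except that leaving out libraries or fitting 1 genotype leaves fewer samples. Without a library, a group of 2 is left.

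Among the 40 results for named genes, 552 alternative values kept direction and side of the threshold, 42 gained a call, 77 lost one and 5 changed sign. Sign changes were those of Kcnj8 at P14 (-0.024 to 0.26 with 1 library left out, below 0 without control 3) and P16 (-0.048 without dMF1/2 2, the lowest, to 0.13, with -0.03 without control 1), and of Abcc9 at P14 (-0.13 without control 2 and -0.06 without dMF1/2 3, up to 0.13 without control 1), none of them called. The block changed no other call of the channel genes described in the report. At P16, 23 of the 117 genes had a mean under 10 normalized reads and were not tested.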

Other observations

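Kcnv1, a silent potassium channel subunit too low to be tested at P16, had 0 reads in all 3 P16 control libraries, which allows up to 3 reads in each. It had 0.932, 13.9 and 1.95 normalized reads in P14 control, 12.6, 14.9 and 18.9 in P14 dMF1/2, and 5.40, 0 and 20.1 in P16 dMF1/2, so the P16 groups overlap at 0. Kcna2, a Kv1 pore, was not called between the genotypes at either age. Its values were 8.38, 9.65 and 12.7 in P14 control and 33.6, 22.4 and 23.3 in P14 dMF1/2, a log2 difference of 1.28 (SE 0.33, adjusted p = 0.349), and the difference was 0.18 (SE 0.34) at P16.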
